A study of Mus musculus with 11 samples.

Results

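The genes described here encode the proteasome: the subunits of its core and regulatory particles, its assembly chaperones, activators and inhibitor. They were taken as every region of the authors' deposited table whose gene symbol begins with Psma to Psmg and a digit, with Psmb8 and Psmb9 left out, and no measured value entered that rule. The rule took 157 of 56342 regions of acetylated histone H3 lysine 27 (H3K27ac), or 0.279%, which carried 43 of 12081 gene symbols. One of these symbols, Psmc3ip, is named after its binding to the Psmc3 product, and its own product acts in meiotic recombination and is no proteasome subunit.

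H3K27ac, a histone mark found at active promoters and enhancers, was measured by chromatin immunoprecipitation and sequencing in the mouse pre-T line Beko. All cells were treated for 24 h: with apicidin at 0.01 mg/ml, a histone deacetylase inhibitor given in the labels as an inhibitor of HDAC3; with DAPT at 10 mg/ml, a gamma-secretase inhibitor (GSI) that prevents Notch receptor cleavage; or with DMSO as the control. Doses are as labelled, and that of DAPT is high enough that its unit may be a slip in the labels. Each treatment had 2 H3K27ac libraries and 1 input, and 2 further libraries of DMSO cells were made for RBPJ, the DNA-binding partner of cleaved Notch, so that 11 libraries were made in all.

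The table gives a fold change for each treatment and 1 mean over libraries per region, so values are shown per region with the authors' standard error (SE), and no value per library can be given. The base mean is the authors' mean normalised read count of a region. A region is called higher or lower where its deposited adjusted p is under 0.05. The labels do not say whether replicate libraries stem from separate cultures, and p-values therefore cover the spread between these libraries only, which may be technical. In a bulk culture, fewer acetylated cells and less acetylation per cell cannot be told apart. Because the authors normalised the counts, a shift shared by all regions would not be seen, and each change is relative to the other regions. As a check on the cell line, all 8 pre-T marker genes had a region, with 144 to 394 normalised reads per kilobase at the strongest region of each. Among markers of other lineages, 3 of 4 B-lineage genes (98.1 to 173 per kilobase), 3 of 3 erythroid genes (105 to 272) and 1 of 4 myeloid genes (Itgam, 383) had one.

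The proteasome degrades proteins that carry ubiquitin chains. A barrel-shaped core particle, built of alpha rings on the outside and beta rings inside, holds the proteolytic sites, and a regulatory particle with a ring of ATPases and a lid recognises, deubiquitinates and unfolds the substrate. Most cells transcribe these genes together at a steady high level, the transcription factor Nfe2l1 raises them when degradation falls short, and lymphoid cells can exchange catalytic subunits for inducible ones that alter the peptides presented to T cells.

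Promoters of 6 of these genes are shown because they stand for the different outcomes below. Psma1 and Psmc6 had regions that overlapped an RBPJ site, Psma3, Psmb5 and Psmd1 had promoter regions that fell with apicidin, and Psmc1 and Psmc6 had regions at or beside the promoter that rose. Each sequence runs 5′ to 3′ on the strand of the gene, from 250 bases before to 50 after the transcription start site (TSS), and comes from RefSeq on GRCm38.p6, whereas the regions of the table lie on mm9. Capitals mark matches, on either strand, to the RBPJ core TGGGAA, the ETS core CCGGAAG, the core of the antioxidant response element TGACNNNGC, the CCAAT box or the TATA box TATAAA.
Psma1 (chr7:114276067-114276366, minus strand): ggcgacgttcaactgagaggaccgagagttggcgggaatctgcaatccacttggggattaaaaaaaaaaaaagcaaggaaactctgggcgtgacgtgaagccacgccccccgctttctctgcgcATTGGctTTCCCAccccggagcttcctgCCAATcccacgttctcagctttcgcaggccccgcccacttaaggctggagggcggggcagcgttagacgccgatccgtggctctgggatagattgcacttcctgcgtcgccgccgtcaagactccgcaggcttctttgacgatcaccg
Psma3 (chr12:70974373-70974672, plus strand): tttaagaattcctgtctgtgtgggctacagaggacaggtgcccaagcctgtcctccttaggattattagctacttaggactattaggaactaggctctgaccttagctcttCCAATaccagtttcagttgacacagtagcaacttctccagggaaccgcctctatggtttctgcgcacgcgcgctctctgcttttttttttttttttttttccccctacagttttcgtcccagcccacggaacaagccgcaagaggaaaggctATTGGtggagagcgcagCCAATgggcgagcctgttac
Psmb5 (chr14:54617946-54618245, minus strand): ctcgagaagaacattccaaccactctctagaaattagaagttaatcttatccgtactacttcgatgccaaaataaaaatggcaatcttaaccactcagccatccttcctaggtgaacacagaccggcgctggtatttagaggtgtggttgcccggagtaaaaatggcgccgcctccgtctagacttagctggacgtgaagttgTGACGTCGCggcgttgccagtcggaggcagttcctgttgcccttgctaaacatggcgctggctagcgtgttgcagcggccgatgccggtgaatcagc
Psmc1 (chr12:100109952-100110251, plus strand): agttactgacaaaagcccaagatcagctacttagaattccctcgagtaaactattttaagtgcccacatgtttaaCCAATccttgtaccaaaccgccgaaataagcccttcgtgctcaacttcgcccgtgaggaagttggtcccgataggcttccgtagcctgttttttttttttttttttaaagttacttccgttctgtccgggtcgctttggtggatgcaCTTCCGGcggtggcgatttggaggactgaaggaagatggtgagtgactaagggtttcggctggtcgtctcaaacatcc
Psmc6 (chr14:45329574-45329873, plus strand): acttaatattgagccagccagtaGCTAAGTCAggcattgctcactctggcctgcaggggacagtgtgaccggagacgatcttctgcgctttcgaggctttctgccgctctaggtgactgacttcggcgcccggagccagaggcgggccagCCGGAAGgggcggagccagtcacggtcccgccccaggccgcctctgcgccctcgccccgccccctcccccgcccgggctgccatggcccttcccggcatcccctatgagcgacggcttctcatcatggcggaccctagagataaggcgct
Psmd1 (chr1:86064369-86064668, plus strand): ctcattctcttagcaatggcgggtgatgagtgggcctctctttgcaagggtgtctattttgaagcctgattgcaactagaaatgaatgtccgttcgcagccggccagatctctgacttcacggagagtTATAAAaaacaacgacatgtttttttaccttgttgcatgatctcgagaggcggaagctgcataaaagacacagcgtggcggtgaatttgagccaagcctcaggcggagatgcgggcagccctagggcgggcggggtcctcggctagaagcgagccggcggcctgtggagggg

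In these windows the RBPJ core lay at position -119 of Psma1 on the minus strand, between a pair of CCAAT boxes at -126 and -98. Positions are given as bases before (minus) or after the first of the 50 downstream bases. Strands of matches are relative to the printed sequence, so that minus here means the strand opposite to the gene. The ETS core, the recognition letters of a factor family common at housekeeping promoters, lay at -28 of Psmc1 on the minus strand and at -100 of Psmc6 on the plus strand. The antioxidant response element core, whose letters Nfe2l1 and its relatives recognise, lay at -47 of Psmb5 and at -227 of Psmc6. Psma3 held CCAAT boxes at -139, 13 and 30, and Psmd1 held a TATA box at -122. Over 38 RefSeq promoters of 36 of the genes, the ETS core was present in 34.2%, against 19.6% of 7432 promoters of genes with a region covering the TSS and 8.86% of all 32851 promoters. Against the same backgrounds in the same order, the RBPJ core was present in 26.3%, against 22.3% and 25.6%, and the antioxidant response element core in 15.8%, against 14.8% and 12.4%. CCAAT was found in 31.6%, against 37.6% and 37.4%, and TATAAA in 7.89%, against 6.14% and 13.6%. These matches describe letters in a window and are not binding sites. The median GC content of the 38 promoters was 58.2%, against 61.3% and 52.7%, and they held a median of 19 CpG, against 21 and 7. By RefSeq start sites, 5 of the 36 genes (13.9%, against 17.6% and 12.2%) had another gene starting within 1000 bp on the opposite strand, namely Psma2 beside Mrpl32, Psma7 beside Ss18l1, Psmc5 beside Ftsj3, Psmd10 beside Atg4a and Psme2 beside Rnf31.

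Of the 43 genes, 38 had an acetylated region over the TSS, and most regions lay elsewhere. Of the 157 regions, 38 covered a TSS, each of a different gene, and 119 did not. The 38 promoter regions had a median width of 1718 bp and a base mean of 377 at the median, from 55.7 to 1771, against 1929 bp and 475 for all 7889 regions covering a TSS. Per kilobase the medians were 238 normalised reads for the proteasome promoters and 237 for all promoter regions. The regions off a TSS were weaker, with a median base mean of 47.2, against 48.4 for all such regions. A single region was all that 13 of the genes had, the median was 2 regions per gene, and Psma6 had 34. Of 47 symbols listed for this complex and its helpers, 4 had no region that could be analysed here: Psma8, a testis-specific alpha subunit, Psmb11, the subunit of cortical thymic epithelium, the ATPase gene Psmc2 and the lid gene Psmd13. RefSeq places the start of Psmd13 within 1000 bp of that of Sirt3 on the opposite strand, and the Sirt3 promoter region had a log2 fold change of 0.32 ± 0.17 (SE; adjusted p = 0.165) under apicidin, and 0.12 ± 0.18 (adjusted p = 0.755) under GSI, in the authors' deposited table.

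With apicidin, proteasome promoters were lower more often than higher, as were promoters at large. Among the 38 regions covering a TSS, 9 fell (23.7%) and 2 rose (5.26%) by the calls of the authors' deposited table, whereas 39.4% of all regions covering a TSS fell and 8.01% rose. Their median log2 fold change was -0.14, against -0.24 for all promoter regions and -0.25 for the 7136 promoter regions within the same range of base mean, of which 39.7% fell. Over all 157 regions, 22 fell (14.0%) and 7 rose (4.46%) in the authors' deposited table, against 14.1% and 9.69% of all regions, with medians of -0.03 for these genes and 0.0040 for all. The share of lower regions is thus near that of the whole table. No test was made of any difference between these genes and the others.

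Counted by gene, with each gene represented by its region of highest base mean, 11 of 43 genes fell with apicidin, 3 rose and 29 were not called, against 33.5% lower and 12% higher among all genes. The median was -0.11 for these genes and -0.18 for all genes. This split depends on where zero is set, since promoter regions at large had a median of -0.24 and the stronger regions, those not under the median base mean, one of -0.10. Centred on the stronger regions, 6 genes fell and 4 rose (all genes 25.1% and 16.1%). Centred on promoter regions, 4 fell and 8 rose (15.9% and 23.9%), and with the trend over base mean subtracted 5 fell and 5 rose (22.9% and 16.8%). Under all of these settings 4 genes remained lower, namely Psma3, Psma6, Psma7 and Psmd1, and 3 remained higher, namely Psmc1, Psmc6 and Psmd8.

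**Figure D1:**
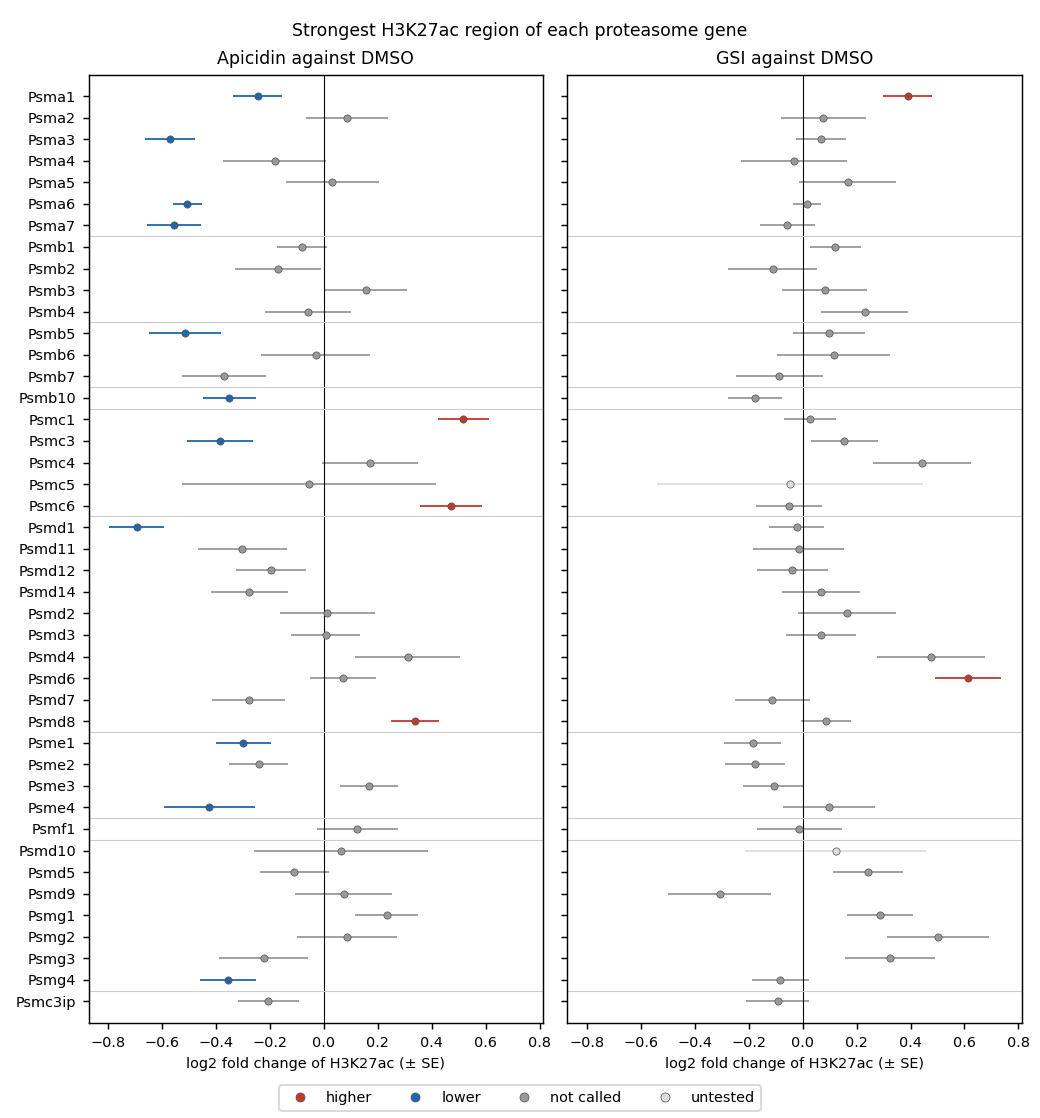
Log2 fold change (± SE) of the strongest H3K27ac region of each of 43 genes, as deposited by the authors, for apicidin against DMSO (left) and GSI against DMSO (right), grouped from the top by role. Red and blue points passed an adjusted p of 0.05 as higher or lower: 3 and 11 with apicidin, 2 and 0 with GSI.

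The alpha ring gates entry to the core particle. Of its 7 genes with a region, 4 fell and 0 rose, against 33.5% lower and 12% higher among all genes, and the median was -0.25, against -0.18 for all genes. The calls at Psma1 and Psma6 rest on regions 39929 and 5175 bp from the TSS. At Psma3 all 3 regions fell, and the promoter region (chr12:72074697-72077884, mm9) had a log2 fold change of -0.57 ± 0.09 (adjusted p = 1.96e-08) in the authors' deposited table. At Psma7 the promoter region, 1 of 4 regions, had -0.56 ± 0.10 (adjusted p = 5.73e-07) in the authors' deposited table. Per kilobase these regions held 293 and 363 normalised reads. For Psma6 the strongest region, which does not cover the TSS, had -0.50 ± 0.05 (adjusted p = 1.55e-19) in the authors' deposited table, whereas its promoter region had -0.08 ± 0.08 (adjusted p = 0.504). For Psma1 the strongest region lay 39929 bp from the TSS and had -0.25 ± 0.09 (adjusted p = 0.0297) in the authors' deposited table, a call lost when the values were centred on strong regions (adjusted p = 0.256). Represented by its promoter region instead, Psma1 had the opposite sign, 0.31 ± 0.15 (adjusted p = 0.106), in the authors' deposited table. The strongest regions of Psma2, Psma4 and Psma5 were not called, with values between -0.18 and 0.09.

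The beta ring carries the proteolytic sites. Its structural genes Psmb1, Psmb2, Psmb3 and Psmb4 had no call at their strongest regions, whose values ran from -0.17 to 0.16 in the authors' deposited table. The highest of these, at Psmb3, came from a region 6755 bp from its start. Among the 3 constitutive catalytic genes, only Psmb5, which encodes the chymotrypsin-like site, fell, against 33.5% lower among all genes. Its only region (chr14:55236091-55237366, mm9) had -0.51 ± 0.13 (adjusted p = 8.50e-04) in the authors' deposited table, though centring on promoter regions took the call away (adjusted p = 0.111). Psmb7, which encodes the trypsin-like site, had -0.37 ± 0.16 (adjusted p = 0.0719) and Psmb6, for the caspase-like site, had -0.03 ± 0.20 (adjusted p = 0.942) in the authors' deposited table. Per kilobase the Psmb5, Psmb6 and Psmb7 regions held 287, 191 and 233 normalised reads. Psmb10, whose product replaces that of Psmb7 in the immunoproteasome, fell with a value of -0.35 ± 0.10 (adjusted p = 0.0024) in the authors' deposited table, but lost the call on centring to promoter regions (adjusted p = 0.426) and without the trend (adjusted p = 0.191).

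In the ATPase ring of the regulatory particle, which unfolds substrates, 2 of 5 genes with a region rose with apicidin and 1 fell, against 12% higher and 33.5% lower among all genes. Psmc1 rose, with 0.52 ± 0.09 (adjusted p = 6.27e-07) in the authors' deposited table at a region 119 bp from the TSS and a base mean of 1000.2. Psmc6 rose, with 0.47 ± 0.11 (adjusted p = 4.06e-04) in the authors' deposited table at the promoter region (chr14:45946837-45950401, mm9). Both kept the call under each setting of zero named above. Psmc3, another ATPase gene of the same ring, fell at its promoter, with -0.38 ± 0.12 (adjusted p = 0.0096) in the authors' deposited table before, but not after, centring to strong regions (adjusted p = 0.0747). Psmc4 had 0.17 ± 0.18 (adjusted p = 0.553) in the authors' deposited table. The only region that carried the Psmc5 symbol was weak, with a base mean of 23.1 and a value of -0.05 ± 0.47 (adjusted p = 0.955) in the authors' deposited table. One of the start sites that its distance allows falls within the promoter region assigned to Ftsj3, which starts beside Psmc5, and that region had 0.02 ± 0.12 (adjusted p = 0.945) in the authors' deposited table.

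Of the 10 other regulatory-particle genes with a region, 1 fell, 1 rose and 8 were not called. Among all genes 33.5% fell and 12% rose. Psmd1, a large scaffold of the particle's base, had the lowest value among the strongest regions of all 43 genes, -0.69 ± 0.10 (adjusted p = 3.68e-10) in the authors' deposited table, at its promoter (chr1:87960335-87962410, mm9). Psmd8, a lid gene, rose, with 0.34 ± 0.09 (adjusted p = 0.0013) in the authors' deposited table at a promoter region with a base mean of 901. Psmd14, the deubiquitinase of the lid, had -0.28 ± 0.14 (adjusted p = 0.161) in the authors' deposited table. The other genes were not called, from -0.30 for Psmd11 to 0.31 for the ubiquitin receptor gene Psmd4.

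Among the activators that open the core particle without ATP, 2 of 4 fell and 0 rose, against 33.5% lower and 12% higher among all genes. Psme1 had -0.30 ± 0.10 (adjusted p = 0.0195) and its partner subunit gene Psme2 -0.24 ± 0.11 (adjusted p = 0.0914) in the authors' deposited table. Psme4, which encodes the activator PA200, had -0.42 ± 0.17 (adjusted p = 0.0498) in the authors' deposited table, just inside the threshold. Psme3, for the nuclear activator PA28 gamma, had 0.17 ± 0.11 (adjusted p = 0.283) in the authors' deposited table. The calls for Psme1 and Psme4 were lost at a threshold of 0.01 and on each change of zero, with adjusted p-values from 0.160 to 0.711. Psmf1, the gene of the inhibitor PI31, had 0.12 ± 0.15 (adjusted p = 0.625) in the authors' deposited table.

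Of 7 assembly chaperone genes 1 fell and 0 rose, against 33.5% lower and 12% higher among all genes. The gene that fell was Psmg4, for a chaperone of alpha ring assembly, with -0.36 ± 0.10 (adjusted p = 0.0041) in the authors' deposited table. On centring to strong regions it no longer passed (adjusted p = 0.0553). Psmg1 had 0.23 ± 0.12 (adjusted p = 0.146), at a region 4613 bp from its start, and Psmg3 -0.22 ± 0.17 (adjusted p = 0.375) in the authors' deposited table. The Psmg1 promoter region had 0.17. The chaperones of the regulatory particle, Psmd5, Psmd9 and Psmd10, had strongest regions between -0.11 and 0.07, none of them called. That of Psmd9 lay 32577 bp from its start, and the Psmd9 region 23 bp from the start had -0.26 ± 0.19 (adjusted p = 0.371) in the authors' deposited table. Psmg2 is a special case, since its promoter is not among its own regions. Its 2 regions imply a start site that lies in a promoter region assigned to Cep76, and that region had -0.87 ± 0.09 (adjusted p = 8.48e-18) under apicidin, and -0.16 ± 0.10 (adjusted p = 0.318) under GSI, in the authors' deposited table. Acetylation of 2 start sites within 1 region cannot be told apart. Psmc3ip, no subunit, had -0.21 ± 0.11 (adjusted p = 0.190) in the authors' deposited table.

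**Figure D2:**
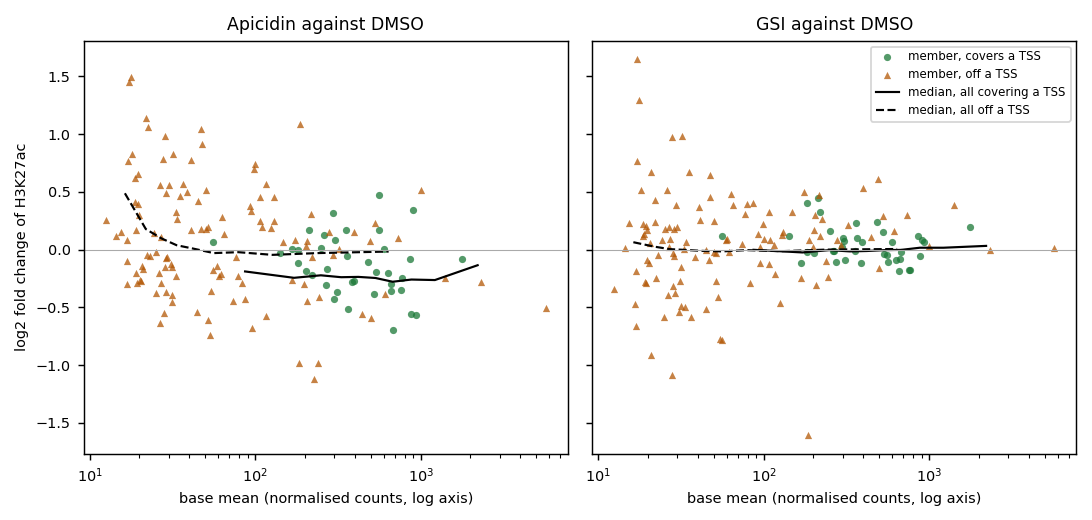
Log2 fold change of the 157 regions against base mean (log axis), for apicidin against DMSO (left) and GSI against DMSO (right). Circles cover a TSS and triangles do not. Lines join the medians of bins of base mean for all regions covering a TSS (solid) or off a TSS (dashed). For apicidin the solid line lies below 0 and the 38 circles have a median of -0.14, whereas for GSI both lines lie close to 0.

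Off the promoters the direction with apicidin varied with distance. In all, 13 of 119 such regions fell and 5 rose, against 10.0% and 9.97% of all regions off a TSS. Within 1000 bp of the TSS, 3 of 13 regions rose and 0 fell by the authors' DESeq2 calls (5 and 0 at an unadjusted p under 0.05), against 7.99% higher and 11.2% lower among all regions at that distance, with medians of 0.31 for these genes and 0.0022 for all regions. Further out, up to 5000 bp, 2 of 36 rose and 1 fell (all regions 9.32% and 4.67%), with medians of 0.35 for these genes and 0.22 for all regions. Beyond 5000 bp, 0 of 70 rose and 12 fell by the authors' DESeq2 calls, or 2 and 12 at an unadjusted p under 0.05 (all regions 10.3% and 11.3%), with medians of -0.15 for these genes and 0.01 for all regions. Of those 70 regions 31 belong to Psma6, and without that gene 4 of 39 fell and the median was 0.06. As a set the regions off a TSS had a median SE of 0.35, against 0.14 for the promoter regions, and a lower median base mean (47.2, against 377), and the part of these in the medians was not tested.

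**Figure D3:**
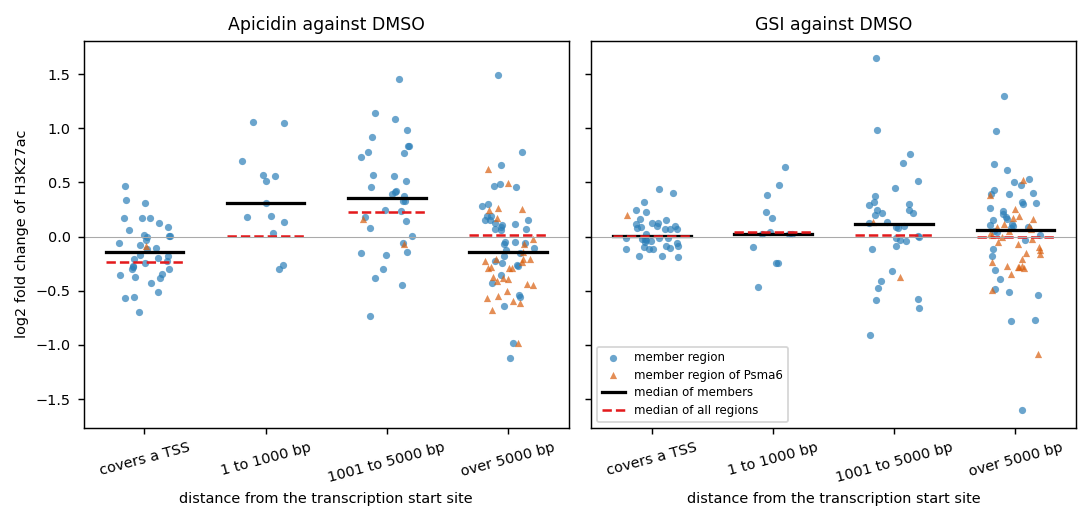
Log2 fold change of the 157 regions by distance from the TSS, for apicidin against DMSO (left) and GSI against DMSO (right). Triangles are the regions of Psma6, solid lines medians of the proteasome genes and dashed lines medians of all regions. With apicidin the solid line is at -0.14 for promoters, 0.31 and 0.35 for the middle classes, and -0.15 beyond 5000 bp, where Psma6 supplies 31 of 70 regions.

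Within genes, flanks and promoters often differed with apicidin. In 20 of 23 genes that had both kinds (87.0%), the median of regions within 5000 bp was above the promoter value, as in 77.0% of 4464 genes of the table, and the median difference was 0.25, against 0.37 in those genes. At Psmd1 the flank, a weak region (base mean 40.7), stood at 0.78 ± 0.37 (adjusted p = 0.122) beside a promoter value of -0.69. A Psmd1 region just beyond that window, 5067 bp from the start, had -0.43 ± 0.27 (adjusted p = 0.276). At Psmc3 the flank stood at 0.89 beside -0.38, from regions with base means of 17.2 and 33.2 (adjusted p = 0.0694 and 0.662). None of these flank regions was called in the authors' deposited table. The opposite order was found at Psma4, with a flank of -0.73 ± 0.33 (adjusted p = 0.0899) beside -0.18, at Psmc6 and at Psmd5. The flank regions of these genes were not called either.

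Among called regions, those off a promoter gave the widest changes with apicidin. The median SE was 0.35 off a TSS and 0.14 at promoter regions, so a call off a TSS took a wider change. A region 8155 bp from the Psmc3 start (chr2:90885295-90886017, mm9) fell, with -1.12 ± 0.17 (adjusted p = 1.17e-09) in the authors' deposited table. A region 4602 bp from the Psmc1 start (chr12:101344769-101345938, mm9) rose, with 1.08 ± 0.18 (adjusted p = 8.29e-08) in the authors' deposited table. Their base means were 226 and 188. A further increase was at the Psmc1 region 119 bp from the start, given above. The remaining increases in the authors' deposited table were a region 151 bp from the Psmb2 start with 1.05 ± 0.35 (adjusted p = 0.0158), one 2232 bp from that of Psmb3 with 0.74 ± 0.24 (adjusted p = 0.0134) and one 5 bp from that of Psma5 with 0.70 ± 0.25 (adjusted p = 0.0269). These 3 regions were weak, with base means of 46.8, 101 and 98.5, and the promoter regions of Psmb2 and Psmb3 were not called.

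Psma6 stood apart by the number of its regions and the strength of a few of them. Their median base mean was 39.9, against 61.3 for all regions. Its 34 regions held 8 that fell and 0 that rose with apicidin, and 0 of 12 tested regions were called with GSI, by the authors' DESeq2 calls. Over all regions 14.1% fell and 9.69% rose with apicidin, and of those tested 7.17% fell and 6.62% rose with GSI. At an unadjusted p under 0.05, 0 rose with apicidin, and 1 of the tested regions with GSI was higher and 0 were lower. The strongest (chr12:56481805-56494636, mm9) was 12832 bp wide with a base mean of 5718, a strength that 76 of the 56342 regions reached. Another region 20236 bp from the start had -0.98 ± 0.16 (adjusted p = 5.23e-08) and a further one 42846 bp away -0.68 ± 0.25 (adjusted p = 0.0364) in the authors' deposited table. The symbols are the authors' assignment, and other genes flank this locus. The promoter region of 1110008L16Rik, 76626 bp from the strongest region, had -0.56 (adjusted p = 1.72e-09) for apicidin in the authors' deposited table, and that of Nfkbia, the NF-kB inhibitor gene on the other side, 0.07 (adjusted p = 0.720). Without Psma6, 14 of 123 regions fell with apicidin.

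**Figure D4:**
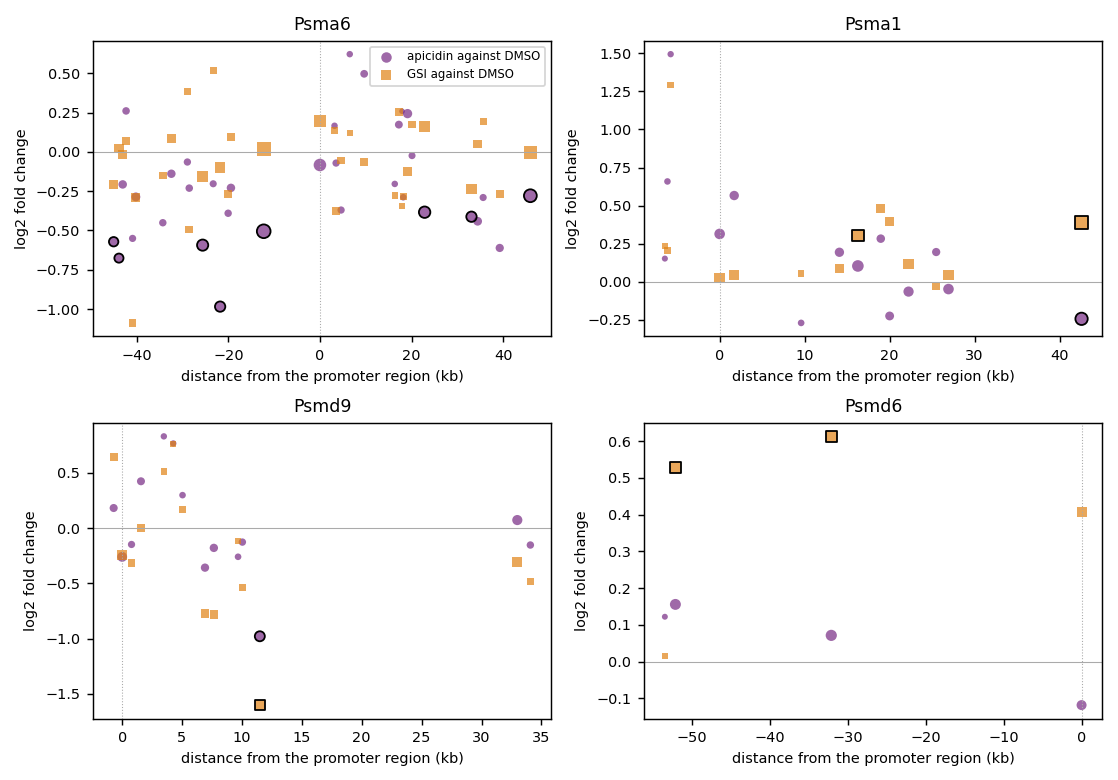
Log2 fold change of each region of Psma6, Psma1, Psmd9 and Psmd6 against its distance from the promoter region (kb), for apicidin (circles) and GSI (squares) against DMSO. Black outlines mark an adjusted p under 0.05 and larger symbols a higher base mean, and the vertical scales differ. Outlined circles of Psma6 all lie below 0, and Psmd9 has a single region at which both treatments are outlined, at -0.98 for apicidin and -1.60 for GSI.

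GSI against DMSO compared acetylation with and without inhibition of gamma-secretase, and so of Notch cleavage. Calls were few, both on these genes and among all tested regions. No promoter region was called among the 37 that the authors' deposited table tested by DESeq2 (0 rose and 0 fell, with 3 and 0 at an unadjusted p under 0.05), against 5.25% higher and 4.36% lower among all promoter regions, and 9.99% and 9.37% unadjusted. Their median was 0.01, against 0.0016 for all promoter regions. Counted by gene, 2 of 41 tested genes rose and 0 fell (6 and 0 at an unadjusted p under 0.05), against 7.74% and 6.80% of all genes, and 13.6% and 11.8% unadjusted. Over the 83 tested regions, 4 rose and 1 fell, against 6.62% and 7.17% of all tested regions, while 74 weaker regions had no adjusted p. These proportions were not tested against each other.

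All 5 called regions lay at least 11292 bp from the promoter of the gene whose symbol they carry. The deepest decrease was near Psmd9, a chaperone gene of the regulatory particle, at a region 11292 bp from its start (chr5:123689492-123690693, mm9), with -0.98 ± 0.17 (adjusted p = 2.59e-07) under apicidin and -1.60 ± 0.19 (adjusted p = 1.26e-14) under GSI in the authors' deposited table. The region 23 bp from the Psmd9 start had -0.24 ± 0.20 (adjusted p = 0.505) under GSI in the authors' deposited table. The nearest Bcl7a region lay 58.1 kb away, and of 4 tested Bcl7a regions 3 fell with GSI in the authors' deposited table, one of them RBPJ-overlapping at 71.9 kb from the Psmd9 region, with -0.50 (adjusted p = 3.28e-13). The nearest promoter region of another gene, that of Setd1b 85338 bp away, had -0.04 (adjusted p = 0.704) under apicidin and -0.04 (adjusted p = 0.757) under GSI by the authors' deposited table, and the Bcl7a promoter region lay 102219 bp away. Which gene the Psmd9 region acts on was not tested.

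Psmd6, a lid gene, had GSI increases at 31356 bp from its start, with 0.61 ± 0.12 (adjusted p = 1.95e-05), and at 51593 bp, with 0.53 ± 0.14 (adjusted p = 0.0024), in the authors' deposited table. Its promoter region had 0.41 ± 0.19 (adjusted p = 0.149) under GSI in the authors' deposited table. At Psma1 the region 39929 bp from the start rose, with 0.39 ± 0.09 (adjusted p = 3.12e-04), and so did one 13416 bp away, with 0.30 ± 0.11 (adjusted p = 0.0356), in the authors' deposited table. The nearest promoter region of another gene, that of Copb1, lay 60660 bp from the stronger of them, beyond the Psma1 promoter region. It had 0.10 (adjusted p = 0.663) under GSI in the authors' deposited table.

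RBPJ overlapped 3 of the 157 regions (1.91%, against 2.73% of all regions), and 2 of 38 promoter regions (5.26%, against 12%). The Psmc6 promoter region was one, with a GSI value of -0.05 ± 0.12 (adjusted p = 0.860) in the authors' deposited table, beside the increase with apicidin given above. The Psma1 promoter region, whose RefSeq promoter holds an RBPJ core, had 0.02 ± 0.15 (adjusted p = 0.952) under GSI in the authors' deposited table. Of 10 genes with that core among 36, only Psma1 had an RBPJ-overlapping region, and the Psmc6 promoter lacked the core. A second Psma1 region, 139 bp from the start, had 0.57 ± 0.23 (adjusted p = 0.0580) under apicidin, and 0.04 ± 0.25 (adjusted p = 0.947) under GSI, in the authors' deposited table. None of the 3 was called with GSI, at SE of 0.12 to 0.25.

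The treatments were compared by the difference of their log2 fold changes, apicidin minus GSI. Both were measured against the same DMSO libraries, so the values stand side by side without any count of overlap, and the SE of the difference is an upper bound. Over the 157 regions, 14 were lower with apicidin than with GSI and 3 higher, against 5.60% and 3.01% of all regions. By gene, 8 were lower and 2 higher (all genes 18.1% and 5.26%), and among promoter regions 5 and 1 of 38 (21.8% and 3.87%). The lower genes were Psma1, Psma3, Psma6, Psma7, Psmb5, Psmc3, Psmd1 and Psmd6, and the higher were Psmc1 and Psmc6.

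Computed from the authors' deposited table, the difference was widest at the Psmc3 region 8155 bp from the start, at -1.39 ± 0.23 (adjusted p = 3.72e-07), from -1.12 for apicidin and 0.27 for GSI. At the Psmc1 region 4602 bp away it was 1.00 ± 0.27 (adjusted p = 0.0047), and at the Psma6 region 20236 bp away -0.89 ± 0.23 (adjusted p = 0.0031), from the authors' deposited table. Promoters gave differences of -0.67 ± 0.14 for Psmd1 (adjusted p = 1.43e-04) and -0.64 ± 0.13 for Psma3 (adjusted p = 5.65e-05), from the authors' deposited table. Both further Psma3 regions were lower too, by -0.75 ± 0.25 at 4011 bp (adjusted p = 0.0322) and -0.67 ± 0.18 at 5395 bp (adjusted p = 0.0055), so that all of that gene's 3 regions differed. At the Psma1 region 39929 bp from its start the difference was -0.63 ± 0.13 (adjusted p = 3.15e-05), with a call of opposite sign for each treatment in the authors' deposited table. At the Psmd9 region lower with both treatments, the difference was not called. Centred on all promoter regions, whose median difference was -0.22, the count over 157 regions became 6 higher and 6 lower. The share of all regions called under that centring was not counted.

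Other genes of the ubiquitin and proteasome pathway were taken from a list of 31 symbols, of which 25 had a region. Of the 6 symbols without one, Ecm29 and Sem1 are other names of AI314180 and Shfm1, which had a region. With apicidin 9 fell and 2 rose, set beside the 33.5% and 12% of all genes, with a median of -0.31. Nfe2l2, a transcription factor gene of the oxidative stress response, had -0.65 ± 0.07 (adjusted p = 3.39e-17) in the authors' deposited table. AI314180, the gene of the proteasome adaptor Ecm29, had -0.60 ± 0.08 (adjusted p = 1.40e-11) and Zfand5, whose product stimulates the proteasome, -0.62 ± 0.09 (adjusted p = 1.39e-10) in the authors' deposited table. Nfe2l1, the factor that raises proteasome genes, had -0.38 ± 0.10 (adjusted p = 8.03e-04) in the authors' deposited table. Further decreases were at the proteasome-bound thioredoxin gene Txnl1 (-0.56), at Vcp, which encodes an unfoldase (-0.48), at its cofactor gene Nploc4 (-0.44) and at Akirin2 (-0.33), whose product brings proteasomes into the nucleus, in the authors' deposited table. Akirin2 and the increases were named after their values were seen. The increases were at Ngly1, 75830 bp from its start (0.28 ± 0.09), and Ubqln2, 122267 bp away where the base mean was 12.2 (2.06 ± 0.71), by the authors' deposited table. With GSI 3 genes rose and 0 fell by the authors' DESeq2 calls (3 and 1 at an unadjusted p under 0.05), beside the 7.74% and 6.80% of all genes. Those that rose included the ubiquitin gene Ubb (0.26) and Ngly1 (0.41) in the authors' deposited table. Centred on promoter regions the apicidin count became 6 lower and 4 higher, beside 15.9% and 23.9% of all genes.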

How the data were processed

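ChIP-seq for H3K27ac was run on Beko cells treated with apicidin, GSI or DMSO, 2 libraries each. Reads were handled with Bowtie2, SAMtools, deepTools and FastQC on the build mm9, per the submitters' processing notes. Not given in the sources used here are the region caller, the counter, tool versions and the role of the inputs. The only material was a table of the authors' comparisons, so nothing was refitted. The columns are DESeq2 output, per the file headers. The base mean is a signal deposited by the authors, a mean of normalised read counts. The log2 fold changes, their SE and the Wald score were deposited by the authors, as were the p-values and adjusted p-values. The headers name no control, which was taken to be DMSO. Depth per library is unknown, and the SE carries the precision. GSI adjusted p-values are missing for 30586 regions, the lowest tested base mean being 72.1, and these were kept as untested.

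The difference between treatments was divided by the root of the sum of both SEs squared. Its two-sided p came from the normal distribution, adjusted by Benjamini-Hochberg across the table, and the method was tested on simulated data. Python 3.11.15, numpy 2.4.6, pandas 2.3.3, scipy 1.17.1 and matplotlib 3.10.9 were used. All genes were accounted for by role. Those named with values were called strongest regions, called regions by size of change up to a set number, RBPJ-overlapping regions and genes of set roles. Promoters and motifs were read from RefSeq. Members and lists were chosen with earlier results of these data known, and the promoters shown, the motifs and the omission of Psma6 after values were seen. Alternatives were other thresholds, centrings and choices of region. Coordinates are as the table gives them. The values of 1 gene of the pathway list are not reported here.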

Additional observations from a re-analysis of the deposited data

How the results depend on the processing

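No paired analysis was possible because the table holds no value per library, and for the same reason no library could be left out. Counts of higher and lower regions or genes depended most on where zero is set for apicidin. Over 157 regions, apicidin gave 7 higher and 22 lower as deposited, 14 and 12 centred on the stronger regions (not under the median base mean), 24 and 8 centred on promoter regions, and 12 and 12 with the trend over base mean subtracted. Both centrings subtract a negative median and so move every region of the table towards higher. The shares of all regions called under these settings were not counted, so these counts are no result about these genes. By gene the 3 higher and 11 lower became 6 lower on the first centring, 8 higher and 4 lower on the second, and 5 and 5 without the trend. On promoter centring the difference between treatments counted 6 higher and 6 lower, and the pathway list 4 higher with apicidin (23.9% of all genes). At an adjusted p under 0.01, apicidin gave 4 higher regions, the difference 8 lower regions and the pathway list 0 higher genes. At 0.1, apicidin gave 12 higher regions, GSI 8 higher regions and 5 higher genes, and the pathway list 1 lower gene with GSI. With promoter regions alone, apicidin gave 2 higher and 9 lower, GSI 0 and 0, and the difference 1 and 5. With each gene taken at its region nearest to the TSS, GSI gave 0 higher genes and Psma1 turned to 0.31 with apicidin. Without Psma6, an alternative chosen after seeing the data, apicidin gave 14 lower regions. Among calls of single genes, 3 were lost at 0.01, 5 on the first centring, 7 on the second, 6 without the trend and, at the region nearest to the TSS, 3 with the direction kept and Psma1 with apicidin, whose sign also turned. The other 69 counts computed stayed within 1.5 times their value as deposited. Centring shifts every region by the same amount, and fewer regions enter the promoter counts. No setting can give the depth or spread of single libraries, and 74 of the 157 regions were untested for GSI.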
